A study of Bos taurus with 36 samples.

Results

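Insulin and growth hormone receptor signalling was followed through 10 genes: the receptors INSR and GHR, the receptor substrates IRS1, IRS2 and IRS4, the regulatory subunit PIK3R1, the kinases AKT2 and MTOR, and the inhibitory proteins SOCS2 and GRB10. They were the rows of the count table whose Entrez gene carries one of these bovine RefSeq symbols, and all 10 of 10 symbols were found among its 35092 rows. RNA was sequenced from heart, liver and tissue labelled gonads of 10 male bovine fetuses collected on Day 42 of gestation, and from whole blood of the heifers that carried them. Fetus numbers follow weight, with fetus 1 the lightest (1.253 g) and fetus 10 the heaviest (1.69 g), and a heifer is named by her fetus. Fetuses 1 to 5 came from the ET_D7 group, in which Day 7 embryos were placed in heifers on Day 7 of the cycle, and fetuses 6 to 10 from the ET_D9 group, in which Day 7 embryos were placed in heifers on Day 9. Every ET_D9 fetus was heavier than every ET_D7 fetus, so fetal weight and transfer group cannot be told apart by a simple comparison.

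In this pathway, insulin binds its receptor INSR, which phosphorylates IRS proteins. These recruit phosphatidylinositol 3-kinase through its regulatory subunit, and AKT kinases and the mTOR kinase then raise glucose use and protein synthesis. Growth hormone acts through GHR and the kinase JAK2 on STAT5, which switches on IGF1 in the liver and also SOCS2, an inhibitor of the same receptor. In ruminants the liver is a main target of growth hormone after birth, while growth before birth depends more on insulin and insulin-like growth factors.

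There were 9 heart libraries (fetus 7 missing), 9 libraries labelled gonads (fetus 2 missing), 8 liver libraries (fetuses 6 and 7 missing) and 10 blood libraries. Total counts per library were 20930367 to 35857434 in heart, 22762065 to 39649051 in gonads, 18231089 to 34454772 in liver and 26602415 to 40812354 in blood. The liver libraries of fetuses 1 and 2 differed by less than the sampling noise and were counted as 1 sample, which left 7 liver samples and 25 organ samples. The liver library of fetus 9 and the gonad library of fetus 6 also lay within counting noise of weighted sums of other libraries of their organ, and results are given with and without them where a call changed. All 8 cardiomyocyte markers were higher in every heart library than in every other organ library, and all 8 hepatocyte markers likewise in the liver. So were 7 of 8 erythroid markers in the liver, HBE1 being the exception (mean 356 CPM in liver, 1453 CPM in heart). The part of erythroid cells in the liver values was not tested. The libraries labelled gonads went against their label: by the same measure 1 of 8 Sertoli and gonadal soma markers, 0 of 6 Leydig markers and 1 of 6 germ cell markers were highest there, against 6 of 8 nephron and mesonephros markers. Among the testis and germ cell markers, DMRT1 was at most 0.277 CPM, INSL3 at most 0.162 CPM and DDX4 at most 0.258 CPM, and those highest there were WT1 (88.6 to 165 CPM), which the developing kidney also expresses, and KIT (16.6 to 32.5 CPM), while PAX2, a gene of the developing kidney, was at 104 to 138 CPM. Values are CPM, counts scaled to the library total after TMM normalisation, and they are compared between samples and not between genes, because no gene lengths were used. In these bulk samples, fewer cells of a type and less RNA per cell cannot be told apart.

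The 10 genes differed in how they were spread over the organs, and AKT2, GHR and MTOR overlapped in every pair of organs. INSR, IRS1 and GRB10 were highest in the liver, SOCS2 in the heart, PIK3R1 and IRS4 in the gonad-labelled libraries, IRS2 was lowest there, and GHR was lowest in the heart. Over the 3 organs, 19549 genes were tested with edgeR's quasi-likelihood test with Benjamini-Hochberg adjustment, and differences are given as log2 with their standard error (SE). Between heart and liver 8 of the 10 genes passed an adjusted p of 0.05, 3 of them higher in heart and 5 lower, where 67.4% of all genes tested passed (33% higher and 34.4% lower). Between heart and gonads 5 passed, 2 higher in heart and 3 lower, where 58.1% of all genes did (29% higher and 29.1% lower). Between gonads and liver 8 passed, 4 higher in gonads and 4 lower, where 73.5% of all genes did (36.2% and 37.4%). The shares called among the 10 genes were therefore near those of all genes. Their median log2 differences were -0.06 for heart against liver, -0.08 for heart against gonads and -0.05 for gonads against liver, beside -0.02, -0.06 and -0.03 over all genes tested.

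**Figure D1:**
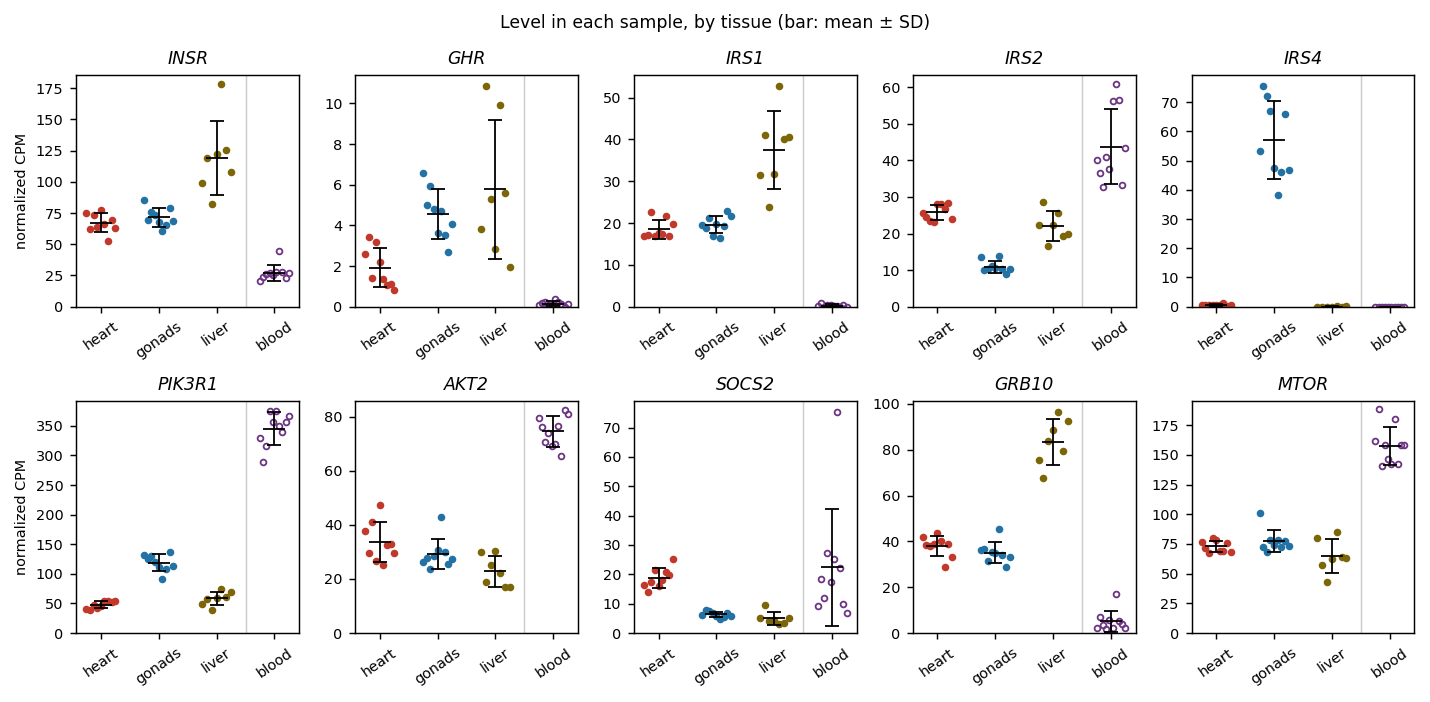
Level of each of the 10 genes in every sample, in CPM on linear axes from 0 that differ between genes, by tissue; each point is 1 sample (open for blood) and the black bars are the mean and SD. IRS4 stands at 38.1 to 75.7 CPM in the gonad-labelled libraries and near 0 elsewhere, and blood is shown beside the organs with no test because its libraries were made with another kit.

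INSR, the insulin receptor, was most abundant in the liver. It ranged from 82.3 to 178 CPM in the 7 liver samples (median 119), from 52.9 to 77.4 CPM in the 9 hearts (median 66.1) and from 60.6 to 85.1 CPM in the 9 gonads (median 69.6). All hearts lay below all livers, and 1 gonad sample, that of fetus 1 at 85.1 CPM, lay above the lowest liver. Means were 119 ± 30.0 CPM in liver (SD, n = 7), 67.2 ± 7.61 CPM in heart (SD, n = 9) and 71.7 ± 7.47 CPM in gonads (SD, n = 9). The log2 difference was -0.83 for heart against liver (SE 0.117, edgeR adjusted p = 7.27e-07) and -0.73 for gonads against liver (SE 0.117, edgeR adjusted p = 3.88e-06). Heart and gonads did not differ beyond their spread (-0.09, 95% interval -0.31 to 0.12). Maternal blood had 21.0 to 44.4 CPM.

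GHR, the growth hormone receptor, was read at a low level in every tissue. The 9 hearts held 20 to 75 counts each and 0.834 to 3.41 CPM (median 1.40), the gonads 135 to 332 counts and 2.67 to 6.59 CPM (median 4.69), and the livers 29 to 233 counts and 1.93 to 10.9 CPM (median 5.31). The liver samples spread most, with fetuses 3 and 8 at 10.9 and 9.94 CPM, and with fetuses 5 and 10 at 2.85 and 1.93 CPM, inside the range of the hearts. GHR was lower in heart than in liver (log2 difference -1.60, SE 0.343, edgeR adjusted p = 0.000211) and lower in heart than in gonads (-1.25, SE 0.324, edgeR adjusted p = 0.00171). Gonads and liver did not differ beyond their spread (-0.34, 95% interval -1.004 to 0.32). In maternal blood GHR had 55 counts over 10 libraries, 0.161 CPM pooled (95% Poisson interval 0.121 to 0.210, counting error only), and 1 library had 0 counts.

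The IRS proteins, which carry the signal from INSR to phosphatidylinositol 3-kinase, each had their own organ profile. IRS1 ranged from 23.9 to 52.9 CPM in liver (median 40.0), from 16.8 to 22.6 CPM in heart (median 17.4) and from 16.5 to 22.9 CPM in gonads (median 19.6). All livers lay above all hearts and all gonads, and hearts and gonads overlapped throughout. The log2 difference for IRS1 was -1.01 in heart against liver (SE 0.127, edgeR adjusted p = 9.44e-08), -0.93 in gonads against liver (SE 0.126, edgeR adjusted p = 3.1e-07) and -0.08 in heart against gonads (95% interval -0.32 to 0.15). IRS1 had 92 counts in the 10 blood libraries together, 0.269 CPM pooled (95% Poisson interval 0.217 to 0.330), of which the heifer of fetus 2 held 40.

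IRS2 was lowest in the gonad-labelled libraries. It ranged from 23.1 to 28.3 CPM in heart (median 25.6), from 16.5 to 28.6 CPM in liver (median 22.3) and from 8.82 to 13.7 CPM in gonads (median 10.4). Every gonad sample lay below every heart and every liver, while hearts and livers overlapped. The log2 difference for IRS2 was 1.23 in heart against gonads (SE 0.110, edgeR adjusted p = 3.51e-10) and -1.01 in gonads against liver (SE 0.116, edgeR adjusted p = 1.65e-08). Heart and liver were not called different (0.22, 95% interval -0.01 to 0.45, edgeR adjusted p = 0.0945). Unlike GHR and IRS1, IRS2 was well read in blood, at 32.7 to 60.9 CPM.

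IRS4, a substrate with a narrower tissue distribution than IRS1 and IRS2, was nearly confined to the gonad-labelled libraries. Those 9 libraries held 38.1 to 75.7 CPM (median 53.4), with fetuses 3 and 4 at 75.7 and 72.3 CPM and fetus 7 at 38.1 CPM. The hearts held 7 to 34 counts each, 135 in all, or 0.396 to 1.20 CPM. The livers held 6 counts in all, 2 in fetus 8 and 4 in fetus 10, with the other 5 samples at 0 (0.0434 CPM pooled, 95% Poisson interval 0.0159 to 0.0945). All 10 blood libraries had 0 counts, where 3 counts would be 0.0698 to 0.113 CPM in a single library. The 3 organs did not overlap for IRS4. The log2 difference was -6.46 for heart against gonads (SE 0.311, edgeR adjusted p = 1.35e-15). The fitted differences from liver, 3.75 for heart (SE 0.503, edgeR adjusted p = 3.02e-07) and 10.22 for gonads (SE 0.461, edgeR adjusted p = 1.44e-16), rest on those 6 liver counts, so their size depends on the prior count of the fit. The nephron and mesonephros markers summed to 351 to 458 CPM in the same libraries, 25.3 to 36.4 CPM in heart and 121 to 284 CPM in liver. CDH16 made up most of the liver sum (99.2 to 258 CPM). The part of these markers in the IRS4 level was not tested.

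PIK3R1, the regulatory subunit that docks on phosphorylated IRS proteins, was highest in gonads among the organs. It ranged from 91.3 to 137 CPM in gonads (median 121), from 39.3 to 73.6 CPM in liver (median 59.0) and from 38.7 to 54.8 CPM in heart (median 48.1). Every gonad sample lay above every heart and liver. The log2 difference was -1.32 for heart against gonads (SE 0.109, edgeR adjusted p = 8.97e-11) and 1.02 for gonads against liver (SE 0.118, edgeR adjusted p = 1.78e-08). The small difference between heart and liver, -0.29 (SE 0.115, edgeR adjusted p = 0.028), was lost with the fetus as a replicate block (-0.28, edgeR adjusted p = 0.0605). Blood held 289 to 375 CPM.

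AKT2, the AKT kinase isoform best known from insulin target tissues, and MTOR, the kinase of both mTOR complexes, overlapped between all organs. AKT2 ranged from 25.1 to 47.4 CPM in heart (median 32.7), from 23.6 to 42.9 CPM in gonads (median 27.6) and from 16.8 to 30.2 CPM in liver (median 22.4). AKT2 was higher in heart than in liver (log2 difference 0.55, SE 0.155, edgeR adjusted p = 0.00281) and was not called different between heart and gonads (0.21, 95% interval -0.07 to 0.49). Its difference between gonads and liver, 0.35 (SE 0.154, edgeR adjusted p = 0.0456), passed in only 6 of 18 alternative fits.

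MTOR ranged from 67.6 to 79.8 CPM in heart (median 71.4), from 68.3 to 101 CPM in gonads (median 74.5) and from 42.8 to 85.2 CPM in liver (median 62.9). The organs overlapped in every pair, and the livers spread most. The difference between gonads and liver, 0.25 (SE 0.108, edgeR adjusted p = 0.0404), passed in 4 of 18 alternative fits. Heart differed from liver by 0.17 (95% interval -0.05 to 0.38) and from gonads by -0.08 (95% interval -0.28 to 0.11), and neither was called. In blood, AKT2 was at 65.3 to 82.6 CPM and MTOR at 140 to 188 CPM.

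SOCS2, which dampens signalling from GHR, was highest in the heart, the organ with the lowest GHR level. It ranged from 13.9 to 25.3 CPM in heart (median 18.03), from 4.94 to 7.82 CPM in gonads (median 6.19) and from 2.90 to 9.67 CPM in liver (median 4.38). All hearts lay above all gonads and livers. The log2 difference was 1.90 for heart against liver (SE 0.204, edgeR adjusted p = 5.88e-09), 1.56 for heart against gonads (SE 0.183, edgeR adjusted p = 4.52e-08) and 0.34 for gonads against liver (95% interval -0.04 to 0.72, edgeR adjusted p = 0.118). With the fetus as a replicate block, the last of these passed (0.51, edgeR adjusted p = 0.0463). Without any library of fetus 3, whose liver at 9.67 CPM stood apart from the other 6, it also passed (0.51, edgeR adjusted p = 0.0122).

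GRB10, an adaptor that inhibits INSR and the IGF1 receptor, was highest in the liver. It ranged from 67.6 to 96.6 CPM in liver (median 83.7), from 28.9 to 43.7 CPM in heart (median 38.8) and from 28.9 to 45.5 CPM in gonads (median 34.997). Every liver lay above every heart and gonad sample. The log2 difference was -1.14 for heart against liver (SE 0.0985, edgeR adjusted p = 1.08e-10) and -1.25 for gonads against liver (SE 0.0984, edgeR adjusted p = 1.47e-11). Heart and gonads differed by 0.11 (95% interval -0.07 to 0.29) and were not called. Blood held 1.63 to 17.2 CPM.

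**Figure D2:**
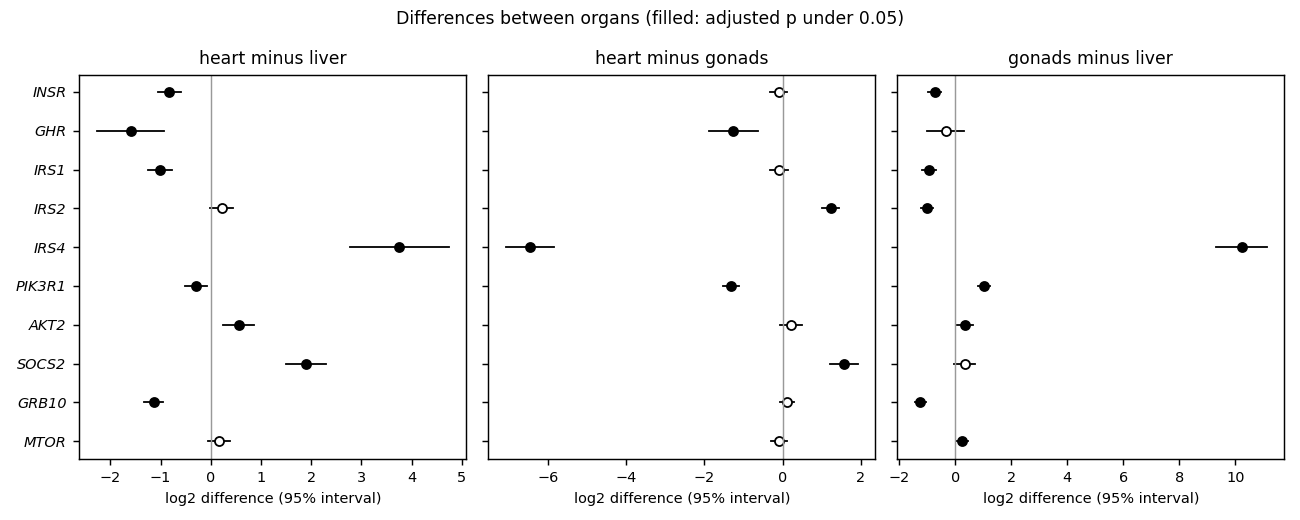
Log2 difference between each pair of organs for the 10 genes, with 95% intervals as bars; filled points passed an adjusted p of 0.05. IRS4 and SOCS2 give the widest differences involving the heart, and INSR, IRS1 and GRB10 lie below 0 for both heart and gonads against liver.

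The libraries of 5 of the 10 genes did not overlap between heart and liver (INSR, IRS1 and GRB10 below, IRS4 and SOCS2 above), where 33.4% of all genes tested did not overlap. Between heart and gonads these were 4 (IRS2 and SOCS2 above, IRS4 and PIK3R1 below; 29.6% of all genes). Between gonads and liver they were 5 (IRS4 and PIK3R1 above, IRS1, IRS2 and GRB10 below; 40.3% of all genes). These counts were read as close to the background for a list of 10 genes.

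For each gene, the 3 other genes whose log2 CPM followed it most closely over the 25 organ samples were found among 16094 genes, as a description in which organ, depth and library are shared. IRS4 was followed by SIM1, PRSS38 and HOXB9 (Pearson r = 0.99 for each). Genes close to GRB10 included SLC25A13 and UBN1 (r = 0.98 for each). PIK3R1 was followed by JARID2, RYR3 and NUP107 (r = 0.98, 0.98 and 0.97) and IRS2 by ZYX, AVPI1 and VEGFB (r = 0.97 for each). SOCS2 went with DLAT, CAV1 and PKIA (r = 0.97, 0.96 and 0.96), IRS1 with MPDU1, INSIG1 and RDH16 (r = 0.95, 0.94 and 0.94) and INSR with ACOX3, KIF4A and ATP9A (r = 0.93 for each). For MTOR, GHR and AKT2 the nearest genes were less close, MTOR with TAF5L, ECHDC3 and ZNF34 (r = 0.91, 0.89 and 0.87), GHR with SLC2A13, GUCY1A2 and NAALADL2 (r = 0.86, 0.84 and 0.84) and AKT2 with RAI1, TBC1D10A and ZFYVE21 (r = 0.86, 0.84 and 0.82).

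The relation to fetal weight was tested within each tissue, as a log2 slope per 0.1 g. In the heart, GHR fell with fetal weight. The ET_D7 hearts held 2.57, 3.41, 1.40, 3.21 and 2.20 CPM in fetuses 1 to 5, and the ET_D9 hearts 1.37, 1.09, 1.13 and 0.834 CPM in fetuses 6, 8, 9 and 10. Every ET_D9 heart lay below every ET_D7 heart, by a narrow margin between fetus 6 (1.37) and fetus 3 (1.40). The slope was -0.40 per 0.1 g (SE 0.105, edgeR adjusted p = 0.0495). GHR was the only one of the 10 genes called in the heart, where 6.77% of 16250 genes were called (1.54% with a falling slope). That share moved from 0% without any one of fetuses 1, 2, 4, 5, 8 and 10 to 24.8% without fetus 3. This call stood at the threshold. It held in 1 of 9 fits that left out a fetus (without fetus 3, edgeR adjusted p = 0.0152), was lost in the other 8 (0.0541 to 0.358), and was lost with transfer group as a covariate (-0.21, edgeR adjusted p = 0.713). The share of counts from the mitochondrial genome also fell along the hearts, from 45.1% in fetus 1 and 57.3% in fetus 2 to 17.1% in fetus 10, with fetus 3 at 23.5%. Its part in the GHR slope was not tested beyond leaving those genes out. With mitochondrial genes left out, the GHR slope was -0.40 (edgeR adjusted p = 0.0507).

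SOCS2 and PIK3R1 leaned the other way in the heart without passing. SOCS2 was at 13.9 to 21.5 CPM in the ET_D7 hearts and at 18.03 to 25.3 CPM in the ET_D9 hearts, which overlapped. Its slope was 0.12 (SE 0.0398, edgeR adjusted p = 0.0793). PIK3R1 was at 40.96, 38.7, 48.1, 42.4 and 45.7 CPM in fetuses 1 to 5 and at 53.6, 54.8, 51.8 and 54.1 CPM in fetuses 6, 8, 9 and 10, so every ET_D9 heart lay above every ET_D7 heart. Its slope was 0.09 (SE 0.0334, edgeR adjusted p = 0.106). These 3 genes had an unadjusted p under 0.05, which 29.1% of all genes had in the heart. The slopes of the other 7 genes were between -0.07 and 0.03, beside a median of -0.01 over all genes. DESeq2 called all 3 genes, with an adjusted p of 0.0148 for PIK3R1 and 0.0206 for SOCS2, but it called 18.9% of all genes in this fit.

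**Figure D3:**
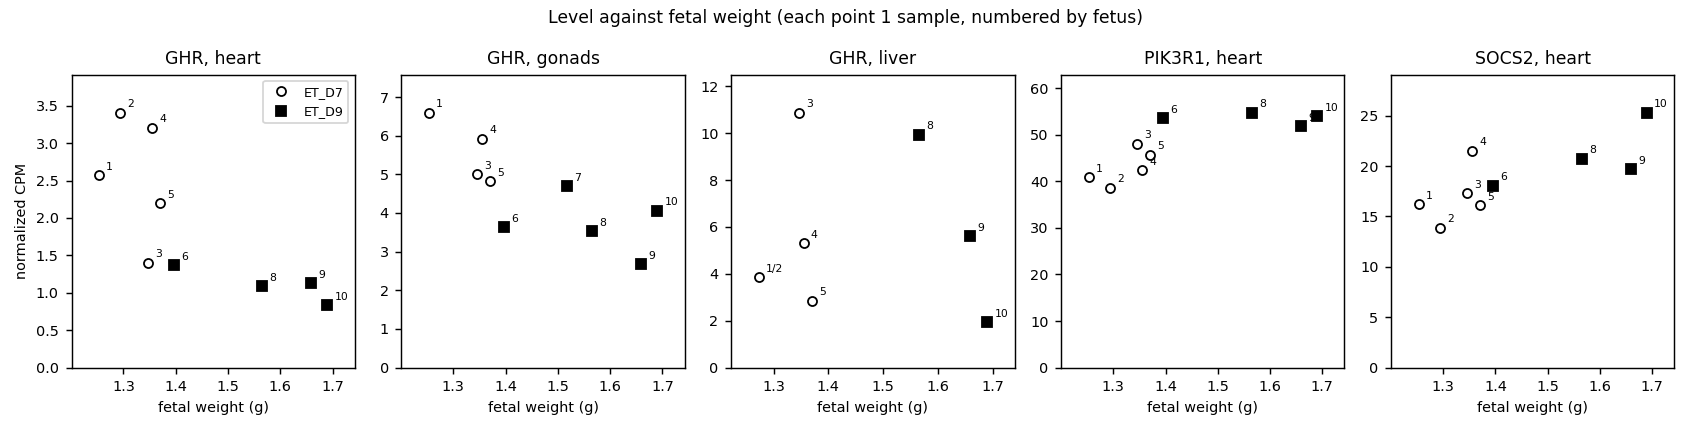
Level in CPM against fetal weight in g for GHR in heart, gonads and liver, and for PIK3R1 and SOCS2 in heart; each point is 1 sample numbered by its fetus (open circles ET_D7, filled squares ET_D9). GHR in heart goes down from 3.41 CPM at most in ET_D7 to 0.834 CPM in fetus 10, and PIK3R1 in heart lies higher in all ET_D9 samples.

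In the gonads 0 of the 10 genes and 0% of 17809 genes were called by edgeR (0 also by DESeq2), with 5.62% of genes at an unadjusted p under 0.05. GHR was the 1 member under that value. It was at 6.59, 5.01, 5.92 and 4.82 CPM in fetuses 1, 3, 4 and 5 and at 3.63, 4.69, 3.52, 2.67 and 4.06 CPM in fetuses 6 to 10. All ET_D9 samples lay below all ET_D7 samples, by a narrow margin between fetus 7 (4.69) and fetus 5 (4.82). The gonad library of fetus 6 (3.63) lay within counting noise of a weighted sum of other gonad libraries, with the largest weights on fetuses 8, 9 and 7. It adds no independent ET_D9 sample to that order. The heart had the same order, but its samples come largely from the same fetuses. The GHR slope was -0.19 (SE 0.0593, edgeR adjusted p = 0.849), and the other 9 slopes were between -0.08 and 0.04.

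In the liver 0 of 9 genes tested were called, where 1.55% of 16211 genes were. IRS4 was too low to be tested there. AKT2 was at 30.0 CPM in the sample of fetuses 1 and 2, 18.7, 25.1 and 30.2 CPM in fetuses 3, 4 and 5, and 22.4, 17.1 and 16.8 CPM in fetuses 8, 9 and 10, and the groups overlapped. Its slope was -0.20 (SE 0.0705, edgeR adjusted p = 0.275). AKT2 was the 1 of 9 with an unadjusted p under 0.05, which 12.7% of genes had, and the other 8 slopes were between -0.19 and 0.09. GHR, whose liver levels spread most, had no order by weight, with 10.9 CPM in fetus 3 and 9.94 CPM in fetus 8. The 8 cardiomyocyte markers summed to 10.3 to 2027 CPM in these livers, highest in fetus 3, where ACTC1 alone was at 1923 CPM. Of the others, NPPA and NKX2-5 were at 0 in every liver and TNNT2 was at most 35.1 CPM (mean 10573 CPM in heart). Their part in the liver values was not tested.

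In maternal blood GHR, IRS1 and IRS4 were too low to be tested, and 0 of the other 7 genes and 0% of 16284 genes were called by edgeR (123 genes by DESeq2). The slopes were between -0.01 and 0.14, and none of the 7 had an unadjusted p under 0.05, where 9.69% of all genes had.

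**Figure D4:**
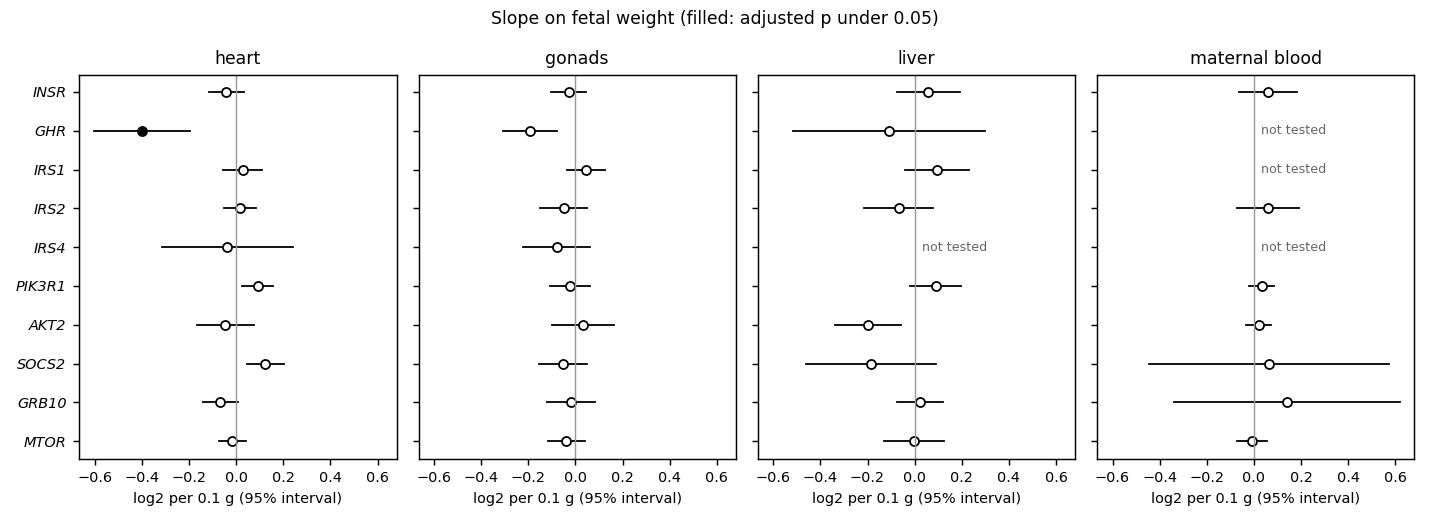
Slope of log2 level per 0.1 g of fetal weight for each gene and tissue. The 95% intervals use a normal approximation and are too narrow for so few samples. The filled point passed an adjusted p of 0.05. Only GHR in heart, at -0.40, is filled.

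A curved relation, fitted as a spline of weight with 3 degrees of freedom, gave no call for any of the 10 genes in any tissue. The share of all genes called was 0% in heart, 0% in gonads, 1.71% in liver and 0.129% in blood. In heart and gonads, where edgeR called 0 genes, 7.99% and 12.6% had an unadjusted p under 0.05 (10.7% in liver and 9.77% in blood). GHR was the 1 member under that value in heart, none was in gonads or liver, and SOCS2, INSR and IRS2 were in blood (edgeR adjusted p = 0.163, 0.484 and 0.497). DESeq2 was not run on the spline.

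The weight slopes were also compared between the 3 organs in 1 fit, since a call in heart and none elsewhere is no difference. None of the 10 genes passed, where 5.95% of 19549 genes did and 19.1% had an unadjusted p under 0.05. GHR had an edgeR adjusted p of 0.595, so its slope in heart was not shown to differ from those in gonads and liver. IRS4 was the 1 gene under that unadjusted value, with an edgeR adjusted p of 0.0751, and its liver values are those 6 counts. IRS4 passed with both liver libraries of fetuses 1 and 2 kept (edgeR adjusted p = 0.039), where 6.2% of all genes did. That fit counts as 2 samples the libraries that differ by less than the sampling noise. IRS4 also passed without the 2 libraries that equal mixtures of others (edgeR adjusted p = 0.0198), where 2.53% of all genes did.

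Between the transfer groups, 0 of 10 genes were called in heart, gonads or liver, and 0 of 7 in blood. The shares of all genes called were 0.0492%, 0.354%, 2.17% and 0%, and the shares at an unadjusted p under 0.05 were 24.6%, 18.5%, 13.3% and 7.6%, beside 2 of 10, 3 of 10, 1 of 9 and 1 of 7 of these genes. In heart, the log2 difference of ET_D9 against ET_D7 was -1.20 for GHR (SE 0.308, edgeR adjusted p = 0.0693) and 0.31 for PIK3R1 (SE 0.0878, edgeR adjusted p = 0.0789). Without fetus 3 both passed (GHR -1.36, edgeR adjusted p = 0.0141, and PIK3R1 0.36, 0.0219), and both passed in DESeq2 (adjusted p = 0.0103 and 0.00421). In heart, 17.9% of all genes passed without fetus 3 and 13.3% passed in DESeq2. In gonads the log2 difference was -0.56 for GHR (SE 0.163, edgeR adjusted p = 0.121), -0.44 for IRS4 (SE 0.169, 0.202) and -0.30 for SOCS2 (SE 0.122, 0.235). In liver it was -0.60 for AKT2 (SE 0.224, edgeR adjusted p = 0.269), and in blood 0.42 for IRS2 (SE 0.152, 0.596), where edgeR called 0 genes and DESeq2 65.

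The 2 transfer groups did not overlap for GHR and PIK3R1 in heart, GHR in gonads and PIK3R1 in liver, and overlapped for every other gene and tissue tested. The share of all genes without overlap was 9.8% in heart, 7.84% in gonads, 15.4% in liver and 1.28% in blood. PIK3R1 in liver was at 39.3 to 59.0 CPM in ET_D7 and at 61.3 to 73.6 CPM in ET_D9. The 61.3 CPM is the liver of fetus 9, which lay within counting noise of a weighted sum, mainly of the livers of fetuses 10 and 8. It is therefore not an independent ET_D9 sample, and neither is the gonad library of fetus 6 for GHR in gonads.

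Some genes differed most between single heifers. SOCS2 in blood was at 75.4 CPM in the heifer of fetus 7 and at 6.94 to 27.2 CPM in the other 9. The same heifer had the highest INSR (44.4 CPM, next 27.9), GRB10 (17.2 CPM, next 7.16) and IRS2 (60.9 CPM, next 56.6). In her library 4.56% of all genes tested stood apart on the high side by the same measure. Her summed leukocyte markers, 6592 CPM, were within the range of the others (5992 to 7193 CPM). PTPRC and LYZ make up most of that sum (means 3921 and 1737 CPM in blood), so it cannot follow the shares of leukocyte types. The part of those shares in her values was not tested.

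**Figure D5:**
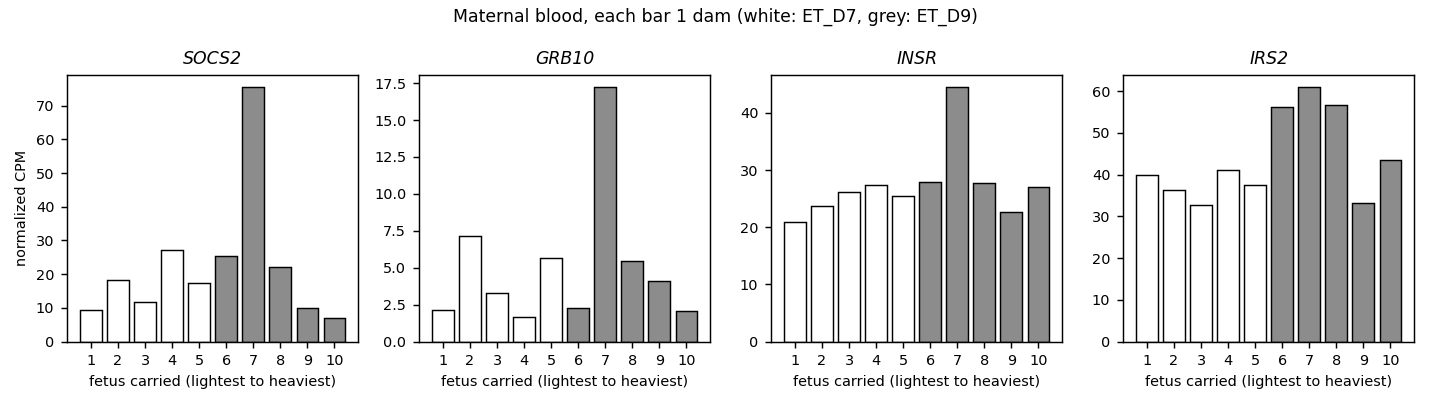
Level of SOCS2, GRB10, INSR and IRS2 in maternal blood, in CPM from 0, with 1 bar per heifer in the order of fetal weight (white ET_D7, grey ET_D9). The heifer of fetus 7 stands above the rest for SOCS2, GRB10 and INSR, and for IRS2 she is level with the heifers of fetuses 6 and 8.

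The rest of the pathway was read from 84 listed genes in 7 lists, of which 79 could be tested over the organs. Between heart and liver 34 were higher in heart and 29 lower. Between heart and gonads 29 were higher and 26 lower, and between gonads and liver 32 were higher in gonads and 30 lower. The shares of all genes called in each direction are those given above.

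Among ligands, receptors and receptor phosphatases, 1 of 7 genes tested was higher in heart than in liver and 5 were lower. ENPP1, which inhibits INSR, was lower (log2 difference -2.11, SE 0.166, edgeR adjusted p = 1.64e-11), at 7.12 ± 1.35 CPM in heart (SD, n = 9) and 30.7 ± 5.87 CPM in liver (SD, n = 7). PTPRF, a receptor phosphatase, was higher (2.28, SE 0.219, edgeR adjusted p = 7.88e-10). INSRR, an orphan receptor related to INSR, was higher in gonads than in heart and liver (heart against gonads -2.36, edgeR adjusted p = 7.04e-10), with 1 of 7 higher and 2 lower in heart than in gonads, and with 2 higher and 5 lower in gonads than in liver.

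Of 16 other adaptors, 9 were higher and 3 lower in heart than in liver, 6 higher and 8 lower in heart than in gonads, and 9 higher and 3 lower in gonads than in liver. CBL, a ubiquitin ligase that acts on activated receptors, was at 4.91 ± 1.13 CPM in liver (SD, n = 7), 18.2 ± 1.85 CPM in heart and 26.2 ± 3.47 CPM in gonads (SD, n = 9 each). GAB2, a docking protein, was at 61.2 ± 8.71 CPM in heart and 8.55 ± 1.61 CPM in gonads (log2 difference 2.84, edgeR adjusted p = 4.39e-15). SH2B2, an adaptor of INSR and JAK2, was higher in gonads than in heart (heart against gonads -2.14) and than in liver (2.97).

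Of 13 phosphatidylinositol 3-kinase and AKT genes, 6 were higher and 5 lower in heart than in liver, 3 higher and 6 lower in heart than in gonads, and 8 higher and 3 lower in gonads than in liver. PIK3R3, another regulatory subunit, was lowest in liver, at 4.42 ± 1.45 CPM (SD, n = 7) beside 26.4 ± 1.11 CPM in heart and 40.9 ± 8.47 CPM in gonads (SD, n = 9 each). AKT1 was higher in heart than in liver (log2 difference 2.78, SE 0.183, edgeR adjusted p = 3.96e-13), further apart than AKT2. INPP5D, a phosphatase of blood cells that opposes the pathway, was lower in gonads than in heart (heart against gonads 1.501) and than in liver (-2.67).

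Of 11 AKT substrates, 7 were higher and 2 lower in heart than in liver, 6 higher and 2 lower in heart than in gonads, and 4 higher and 3 lower in gonads than in liver. FOXO3 was at 90.1 ± 11.5 CPM in liver (SD, n = 7) and 27.2 ± 5.24 CPM in heart (SD, n = 9), a log2 difference of -1.73 (edgeR adjusted p = 5.38e-13). FOXO1, like IRS2, was low in gonads: it was at 6.94 ± 0.984 CPM there, 28.6 ± 3.296 CPM in heart (SD, n = 9 each) and 33.0 ± 7.37 CPM in liver (SD, n = 7). Both are transcription factors that AKT keeps out of the nucleus.

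Of 15 mTOR genes, 6 were higher and 7 lower in heart than in liver, 5 higher and 4 lower in heart than in gonads, and 4 higher and 8 lower in gonads than in liver. DEPTOR, an inhibitor of mTOR, was at 29.2 ± 10.9 CPM in liver (SD, n = 7) and 3.23 ± 0.727 CPM in heart (SD, n = 9), and DDIT4, another inhibitor, had the opposite order (18.6 ± 5.19 and 74.0 ± 10.9 CPM). EIF4EBP1, the translation repressor that mTOR inactivates, was at 133 ± 47.0 CPM in heart and 10.2 ± 2.76 CPM in gonads (SD, n = 9 each). PRR5, a part of mTOR complex 2, was lower in gonads than in liver (-3.98), and SGK1, a kinase downstream of that complex, was higher (3.47).

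Of 14 JAK, STAT and SOCS genes, 5 were higher and 4 lower in heart than in liver, 7 higher and 4 lower in heart than in gonads, and 5 higher and 6 lower in gonads than in liver. CISH, like SOCS2 a target and inhibitor of growth hormone signalling, had another organ order than SOCS2. It was at 77.3 ± 18.02 CPM in liver (SD, n = 7), 19.7 ± 6.75 CPM in heart and 3.60 ± 0.907 CPM in gonads (SD, n = 9 each), with a log2 difference of -4.42 for gonads against liver (edgeR adjusted p = 1.61e-15). SOCS5 was higher in heart than in liver (1.69) and SOCS1 higher in heart than in gonads (2.52). PTPN6, a phosphatase of blood cells, was at 27.0 ± 6.85 CPM in liver and 3.12 ± 0.688 CPM in heart, and 7 leukocyte markers summed to 41.6 to 98.1 CPM in the same livers and to 4.60 to 7.61 CPM in the hearts. CD14 made up most of the liver sum (mean 47.6 CPM), while PTPRC, found on all leukocytes, was at a mean of 2.92 CPM in liver and 2.97 CPM in heart. Their part in this difference was not tested. Erythroid markers summed to 3344 to 4881 CPM in the livers and to 711 to 2736 CPM in the hearts. The part of erythroid cells in the CISH and PTPN6 levels was not tested either.

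All 3 growth hormone targets were lower in heart than in liver. IGF1 was at 12.4 ± 5.82 CPM in liver (SD, n = 7), 5.77 ± 3.89 CPM in heart and 4.60 ± 1.17 CPM in gonads (SD, n = 9 each), and its log2 difference was -1.10 for heart against liver (SE 0.329, edgeR adjusted p = 0.00456). IGFBP3, its main carrier protein in serum, was lower in heart than in liver (-0.66, SE 0.159, edgeR adjusted p = 0.000738) and higher in heart than in gonads (1.41, edgeR adjusted p = 1.23e-08).

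With fetal weight, 2 of 78 listed genes tested were called in heart, both rising, where 6.77% of all genes were called in either direction, and 0 were called in gonads, liver or maternal blood. Among the 2 in heart was TBC1D4, the AKT substrate that controls glucose transporter traffic, with a slope of 0.24 per 0.1 g (SE 0.0574, edgeR adjusted p = 0.0421). That call held in 7 of 15 alternative fits (slopes 0.09 to 0.30) and was lost with transfer group as a covariate (0.09, edgeR adjusted p = 0.753) and without any one of fetuses 1, 2, 4, 5, 8 and 10. None of the listed genes was called between the transfer groups in any tissue. IGF1 in heart had a slope of -0.37 (SE 0.141, edgeR adjusted p = 0.119).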

How the data were processed

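Counts of 36 libraries were analysed. The authors deposited whole-number counts per Entrez gene with no normalisation. Per the labels and the study's methods, organs were dissected and snap-frozen, RNA with an integrity number under 7 was discarded, organ libraries were made with a stranded TruSeq mRNA kit and blood libraries with a stranded SMARTer kit, and reads were checked (FastQC 0.11.9), trimmed (Trimmomatic), mapped to ARS-UCD1.3 (STAR 2.7.0b) and counted (featureCounts, Subread 2.0.3). Options for strand, read pairs and multi-mapping reads are not given in the sources used here, so reads of overlapping or near-identical genes are uncertain. Of the counts from 1 to 200, 80.8% to 84.3% were even in blood and 48.9% to 65.2% in the organs, so a blood count cannot be read as 1 fragment and counting intervals and floors are too narrow there. They cover counting error only.

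Symbols came from bovine RefSeq (ARS-UCD2.0 table), which named 31630 of 35092 identifiers. Its coordinates are another build's and were not used, and no sequences or gene lengths were used. Groups came from the titles and characteristics in the labels. Genes that reached 10 counts in 4 or more libraries were fitted with TMM and edgeR 4.0.16 (quasi-likelihood F test, R 4.3.3), over all organ samples or within a tissue, and p-values were Benjamini-Hochberg adjusted over all genes tested, with calls under 0.05. Standard errors were derived from the same fits, as the size of the log2 value over the square root of its F. Intervals (95%) were made from them with a normal approximation, which is too narrow for the few samples within a tissue. Blood was set beside the organs with no test. The liver libraries of fetuses 1 and 2 were replaced by their rounded mean at the mean weight, which departs from the 26 organ libraries first planned. The 10 genes, the pathway lists and the markers were chosen with earlier results of these data known. All 10 genes are named. Of each pathway list, at most the 2 genes of smallest p per comparison are named. Some results that these rules would name are not reported here. The fits were tested on simulated data. Alternatives were RLE size factors, DESeq2 1.42.0, no filter, no mitochondrial genes, transfer group, depth class or the fetus as a term, each fetus left out, and the library choices described below. Organs of 1 fetus share the animal, so the fetus pairs them. Deviations from the organ mean correlated weakly within a fetus (median 0.0253 for heart and liver over 6 fetuses, 0.113 for heart and gonads over 8 and 0.0196 for gonads and liver over 6).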

Additional observations from a re-analysis of the deposited data

Results flagged for a closer look

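Each gene and tissue with 4 to 10 samples was searched for a highest or lowest sample whose gap to its nearest neighbour exceeded Dixon's 95% critical value. Of 39 groups, 10 had such a sample. A rate of about 1 in 20, or 2 groups, would hold for independent, normally distributed values, but several of the 10 share a library. In every case it was the highest sample. Over all genes tested, 5.26% had such a high sample in heart, 15.5% in gonads, 6.76% in liver and 10.7% in blood. IRS4 in liver and IRS1 in blood, both among the 10, were too low to be in those shares. Neither a cause in the library nor one in the animal was tested.

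In maternal blood the heifer of fetus 7 stood apart for SOCS2 (75.4 CPM, next 27.2), INSR (44.4 CPM, next 27.9) and GRB10 (17.2 CPM, next 7.16). In her library 743 of 16284 genes (4.56%) stood apart on the high side in the same way, the largest share among the 10 blood libraries. The heifer of fetus 2 stood apart for IRS1 (0.930 CPM, next 0.451), and 1.98% of genes did so in her library. The muscle myosin gene MYH7 was at 3358 CPM in her library, while the cardiomyocyte markers TNNT2, TNNI3 and MYL7 were at most 0.186, 0.304 and 0.252 CPM in any blood library and NKX2-5 was at 0. The cardiomyocyte markers summed to 3381 CPM in her library and to 1111 CPM in that of the heifer of fetus 5. The latter had the next highest IRS1 (0.451 CPM, 12 counts). In each of the other blood libraries the markers summed to at most 17.5 CPM. Among these was that of the heifer of fetus 9, with 16 IRS1 counts (0.392 CPM) and a marker sum of 0.0979 CPM. The part of these markers in the IRS1 values was not tested.

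Among the libraries labelled gonads, fetus 7 stood apart for AKT2 (42.9 CPM, next 30.8) and GRB10 (45.5 CPM, next 36.5). In that library 1568 of 17809 genes (8.8%) did so, the largest share of the 9. Fetus 1 stood apart for MTOR (101 CPM, next 78.7), as did 4.89% of genes in its library. In liver, fetus 3 stood apart for SOCS2 (9.67 CPM, next 5.26), with 1.72% of genes. It also had the highest ACTC1 of the livers (1923 CPM). The other cardiomyocyte markers in liver are given above, and their part was not tested. Fetus 10 stood apart for IRS4 (0.266 CPM, next 0.0853), which is 4 counts. In heart, fetus 8 stood apart for IRS4 (1.20 CPM, next 0.732), with 0.215% of genes.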

How the results depend on the processing

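The organ differences of the 10 genes kept their direction under all 18 alternatives. The number called stayed at 7 to 8 for heart against liver and at 5 for heart against gonads when each fetus was left out, and was 6 to 7 for gonads against liver. The shares of all genes called were then 63.6% to 67.8%, 54.0% to 58.3% and 70.4% to 73.5%. For the weight slope in heart, DESeq2 called 3 of these genes and 18.9% of all genes. The number of these genes called was 0 with no filter on low counts, 0 without genes of the mitochondrial genome and 0 with transfer group as a covariate. It was 0 without the 2 fetuses farthest from the median weight, and 0 to 1 with each fetus left out (0% to 24.8% of all genes). GHR alone gave slopes of -0.50 to -0.21 over these fits. For the transfer groups in heart, 2 of these genes were called with DESeq2 (13.3% of all genes) and 0 to 2 with each fetus left out (0% to 17.9%). For the slope difference between organs, 1 was called with both liver libraries of fetuses 1 and 2 kept (6.2% of all genes) and 1 without the libraries equal to mixtures (2.53%). The cause was not tested. The liver and mixture alternatives were chosen after seeing the data.

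With the fetus as a replicate block, 7 genes were called for heart against liver, 5 for heart against gonads and 9 for gonads against liver, and 0 for the slope difference. The shares of all genes called were then 61.7%, 55.5%, 68.2% and 2.33%. PIK3R1 lost its call for heart against liver and SOCS2 gained one for gonads against liver, and no other organ call of these genes changed. That fit drops the merged liver sample.

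PIK3R1 passed for heart against liver in 12 of 18 alternatives (log2 -0.44 to -0.26, adjusted p 7.9e-05 to 0.0649), AKT2 for gonads against liver in 6 (0.20 to 0.42, 0.0189 to 0.261) and MTOR in 4 (0.11 to 0.33, 0.0109 to 0.294). Of 60 other slopes and transfer differences, 38 changed sign under some alternative and 0 passed (smallest adjusted p 0.110).

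Over all genes, counts called moved by over 1.5 times as follows. The heart slope went from 1100 to 3073 with DESeq2, 706 with no filter, and 0 with the covariate or without the farthest fetuses. The transfer difference went from 8 to 2155 with DESeq2 in heart. In gonads it went from 63 to 6 with RLE or without mitochondrial genes, 940 with DESeq2, 3 with no filter and 0 without mixtures. In liver it went from 352 to 897 with DESeq2, 688 with both libraries kept and 34 with both left out. The liver slope went from 251 to 731 with DESeq2, 145 with no filter, 0 with the covariate, 106 without mixtures and 6 with both left out, and the liver spline from 278 to 606 without mixtures and 0 with both left out. With 1 fetus left out, the heart slope went to 0 without any of fetuses 1, 2, 4, 5, 8 and 10, to 1661 without fetus 9 and to 3947 without fetus 3. The heart transfer difference went to 2846 without fetus 3, 5 without fetus 5 and 0 without any other. The gonad transfer difference ran from 0 (without fetus 5, 6 or 10) to 386 (without fetus 9). The liver slope went to 0 without fetus 3, 4 or 5, and the liver transfer difference to 1, 4 and 2. The blood counts were 0 to 2. The slope difference went from 1164 to 453 under the block and 490 without mixtures.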
